A study of Mus musculus with 18 samples.

Results

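The goblet cell mucus genes described here are Muc2, Tff3, Clca1, Zg16, Fcgbp, Agr2, Spink4, Spdef and Retnlb, 9 of the 36757 genes in the count table. They were chosen by symbol, as genes whose products form, fold, process or are secreted with colon mucus, and the rule uses no measured value, though earlier results of these data were known when the genes were chosen. RNA sequencing covered 18 libraries from C57BL/6 mice, 3 labelled wild type and 3 labelled RNF138-/- in each of 3 models. In the colitis model, mice aged 6 to 8 weeks drank 2% dextran sulfate sodium (DSS), a chemical that injures the colon epithelium, for 7 days and plain water for 14 days, the cycle was repeated 2 times, and colon was taken 4 weeks after the last DSS. In the colitis-associated cancer (CAC) model, mice of the same age first received azoxymethane (AOM), a colon carcinogen, at 10 mg/kg. DSS cycles of the same strength, length and number began 4 days later. The study's methods place the end of the CAC model 4 weeks after the last DSS as well. The third model was organoids grown in matrigel from tumor-bearing pieces of CAC intestine. Wild type stands for RNF138fl/fl in the study's methods, mice of both sexes were used there, and the Cre driver and the deleted exons are not given in the sources used here. No untreated colon was analysed here, so each group had DSS exposure, and the CAC and organoid groups AOM as well.

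Goblet cells are the secretory cells of the colon epithelium that build the mucus layer. MUC2 is the gel-forming mucin of that layer, AGR2 is a protein disulfide isomerase of the endoplasmic reticulum needed to make it, and CLCA1, FCGBP and ZG16 are secreted with it, CLCA1 as a metalloprotease that processes mucus and ZG16 as a lectin that binds bacteria. TFF3 is a trefoil peptide that aids repair of the epithelium, SPINK4 belongs to a family of serine protease inhibitors, and RETNLB (resistin-like beta) is a secreted antibacterial protein. SPDEF is the transcription factor that drives goblet cell maturation downstream of ATOH1.

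In mm10, by the GENCODE M21 annotation, all 9 are protein-coding. Muc2 (ENSMUSG00000025515.15) lies at chr7:141690340-141754693 on the plus strand, with 47 exon blocks that sum to 7127 bases. Its longest annotated transcript has 2926 bases, shorter than the exon union, so no single annotated transcript covers all of these bases. Fcgbp (ENSMUSG00000047730.17) lies at chr7:28071236-28120862 (plus), Zg16 (ENSMUSG00000049350.6) at chr7:127050156-127087328 (minus) and Clca1 (ENSMUSG00000028255.6) at chr3:145003817-145032776 (minus). Agr2 (ENSMUSG00000020581.11) lies at chr12:35992907-36004087 (plus) and Spink4 (ENSMUSG00000028415.4) at chr4:40920052-40931395 (plus). Tff3 (ENSMUSG00000024029.4) and Spdef (ENSMUSG00000024215.13) share chromosome 17, at chr17:31125306-31129646 and chr17:27714352-27728955, both minus. Retnlb (ENSMUSG00000022650.6) lies at chr16:48816856-48818892 (plus). No exon of a member overlaps an exon of another gene. Of the 50-base windows of Fcgbp transcripts 6.42% also occur in another gene, mainly 9530053A07Rik, and 0% do for the other 8 members. Fcgbp is therefore the member whose counts such shared windows could have affected.

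RefSeq promoters (GRCm38.p6, 250 bases before and 50 after the gene start) were given for 4 of the 9 members, Muc2, Fcgbp, Agr2 and Spdef. The promoters of Muc2, Fcgbp and Agr2 are printed because these genes were called lower together in the CAC model below. Capitals mark matches on either strand to the CACCC box bound by KLF factors, to the FOXA motif TGTTTNC and to the E-box CAGCTG that ATOH1 can bind.
Muc2 (chr7:141690090-141690389, plus): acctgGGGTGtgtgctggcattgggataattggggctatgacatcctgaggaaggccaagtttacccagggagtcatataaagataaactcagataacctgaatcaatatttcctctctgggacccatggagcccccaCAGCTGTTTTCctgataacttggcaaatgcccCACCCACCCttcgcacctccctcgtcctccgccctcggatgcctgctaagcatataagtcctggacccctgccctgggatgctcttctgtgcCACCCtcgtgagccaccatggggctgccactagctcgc
Fcgbp (chr7:28070986-28071285, plus): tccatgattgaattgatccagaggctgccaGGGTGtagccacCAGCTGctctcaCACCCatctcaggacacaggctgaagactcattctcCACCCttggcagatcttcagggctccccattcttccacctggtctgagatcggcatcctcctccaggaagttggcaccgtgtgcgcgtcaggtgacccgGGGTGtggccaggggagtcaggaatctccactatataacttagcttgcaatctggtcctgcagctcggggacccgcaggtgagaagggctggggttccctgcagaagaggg
Agr2 (chr12:35992675-35992974, plus): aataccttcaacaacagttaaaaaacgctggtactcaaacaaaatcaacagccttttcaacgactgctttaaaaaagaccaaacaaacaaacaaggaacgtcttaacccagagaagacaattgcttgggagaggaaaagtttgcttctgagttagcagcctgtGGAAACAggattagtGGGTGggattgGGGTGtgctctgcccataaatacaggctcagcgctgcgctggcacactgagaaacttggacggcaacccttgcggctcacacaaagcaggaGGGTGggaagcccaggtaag
Counted from the RefSeq gene start at 0, the CACCC box began at −245, −80, −76 and 12 in Muc2, at −220, −196, −160 and −61 in Fcgbp and at −72, −61 and 30 in Agr2. The FOXA motif began at −108 in Muc2, where it overlaps the E-box at −112, and at −87 in Agr2, and the E-box began at −208 in Fcgbp. The Spdef promoter held none of these 3 motifs. The CDX motif TTTATNG was found in Agr2 alone, at −48, and the core GGAT bound by SPDEF occurred 4 times in Muc2, 2 times in Fcgbp, 2 times in Agr2 and 5 times in Spdef. Of all 32841 promoters in the RefSeq table, 57.5% held the CACCC box, 79.6% GGAT, 20.5% the FOXA motif, 16.3% the E-box and 10.9% the CDX motif, so each is common in windows of this length. A match describes letters in a window and not a bound site.

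Total counts per library were between 11514716 and 24390082, and levels are given as CPM, counts scaled to a common library size with the TMM normalization over the 18 libraries. The targeted gene, Rnf138, was not lower in the libraries labelled RNF138-/-. It had 19.6 ± 4.95 CPM (SD, n = 3) in wild-type and 18.8 ± 0.760 CPM in labelled RNF138-/- colitis colon, 25.5 ± 3.43 and 43.6 ± 3.41 CPM in CAC colon (log2 fold change 0.72, edgeR, adjusted p = 0.0426) and 49.0 ± 9.79 and 47.0 ± 3.81 CPM in organoids, and these counts per gene do not resolve single exons. The genotype is therefore given as labelled throughout. All 12 tissue libraries had 1911 to 4983 counts on Y-linked genes and at most 11 on Xist. The 3 wild-type organoid libraries had 0 counts on Y-linked genes and 4924 to 6881 on Xist, while the 3 labelled RNF138-/- organoid libraries had 3239 to 5315 on Y-linked genes, so sex and genotype cannot be told apart in the organoids. Wild-type CAC replicate 3 stood apart from replicates 1 and 2, with Car1 at 8359 against 586 and 351 CPM, Myh11 at 2299 against 833 and 822 CPM, Reg4 at 36.6 against 356 and 531 CPM and Muc6 at 2.56 against 41.2 and 39.4 CPM, genes named here after their values were seen. It also had the highest CPM of the CAC libraries for every member but Spink4, and CAC counts without it are given below. Nothing in the labels says that libraries of a group came from separate animals or cultures, and p-values then measure only the spread between these libraries.

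Goblet genes were abundant in colon and scarce in organoids. Together the 9 genes took 2.58% to 2.71% of all counts in wild-type colitis colon, 1.33% to 3.88% in labelled RNF138-/- colitis colon, 1.56% to 4.18% in wild-type CAC colon and 0.275% to 0.430% in labelled RNF138-/- CAC colon. In organoids they took 0.00926% to 0.0512% in wild-type and 0.0115% to 0.0136% in labelled RNF138-/- libraries. The labelled RNF138-/- CAC libraries thus all sat below every other colon library, and the organoid libraries sat below all colon libraries. In bulk RNA, fewer goblet cells and less RNA per goblet cell cannot be told apart.

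**Figure D1:**
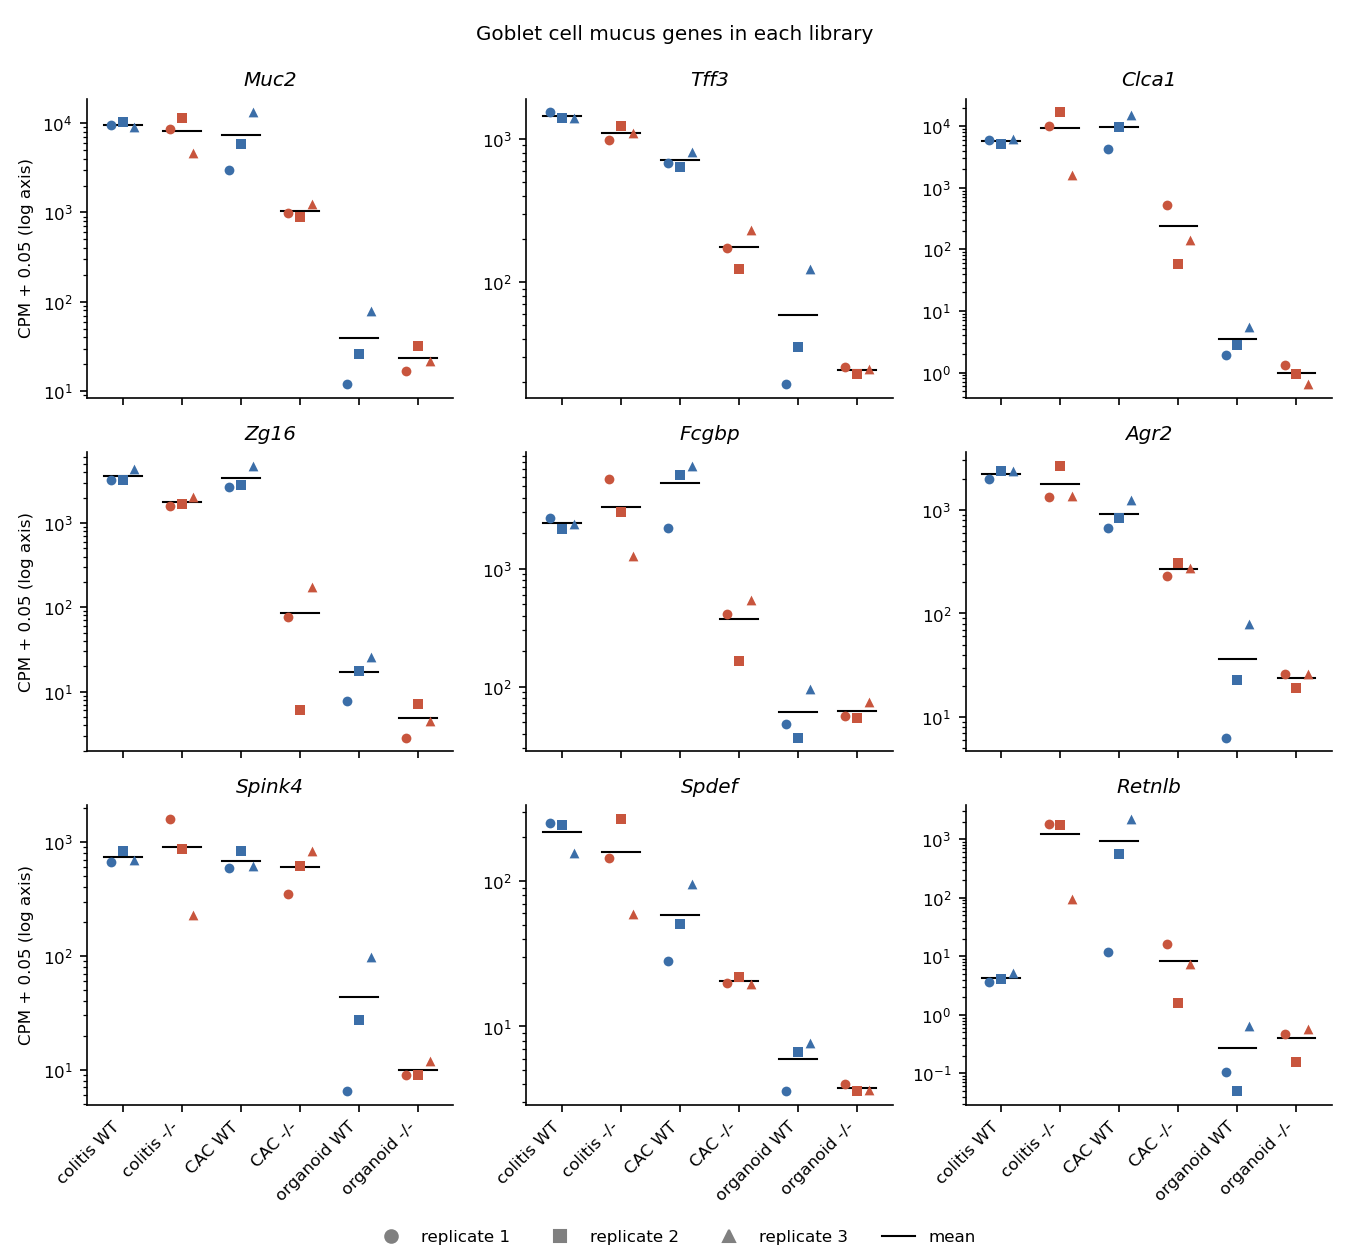
Level of each goblet cell mucus gene in each of the 18 libraries, as CPM plus 0.05 on a log axis, by model and labelled genotype (blue wild type, red labelled RNF138-/-), with the replicate number as the marker shape and a bar at the group mean (n = 3). Here 6 of the genes were called lower in labelled RNF138-/- CAC colon, Spink4 stayed between 350 and 831 CPM there, and Retnlb ranged from 1.54 to 2204 CPM across colon libraries.

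Per kilobase of exon, the order of the members differed between groups. In wild-type colitis colon Tff3 (2925 ± 160 CPM per kilobase) and Zg16 (2897 ± 514) stood highest and overlapped, followed by Agr2 (1735 ± 174), Clca1 (1538 ± 147), Spink4 (1534 ± 186) and Muc2 (1346 ± 88.1), of which each overlapped the next in its range. Fcgbp (231 ± 25.5), Spdef (93.9 ± 22.9) and Retnlb (6.14 ± 1.06) followed with no overlap. In labelled RNF138-/- CAC colon Spink4 was highest at 1259 ± 505 CPM per kilobase, with no overlap with Tff3 at 356 ± 109, Agr2 at 210 ± 30.6 or Muc2 at 145 ± 25.5. Muc2 overlapped Zg16 in its range. Zg16, Clca1, Fcgbp and Retnlb, at means of 68.3, 63.3, 35.7 and 12.1 CPM per kilobase, each overlapped the next, and Spdef was last at 8.86 ± 0.510. In organoids Tff3 ranked highest in both genotypes, at 120 ± 113 and 49.1 ± 2.68 CPM per kilobase. Scaled to the longest transcript instead, Muc2 ranked 2 rather than 6 in wild-type colitis colon, because that transcript is shorter than the exon union.

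In CAC colon, 6 of the 9 goblet genes were called lower in the libraries labelled RNF138-/- than in wild type (edgeR, adjusted p under 0.05 and fold change of at least 2) and 0 were called higher, where 4.83% of all genes tested were called lower and 0.546% higher. The members' median log2 fold change was −2.90, beside 0.01 over all genes tested. Muc2, Tff3, Clca1, Zg16, Fcgbp and Agr2 were called. Spdef and Retnlb missed the threshold and Spink4 differed by less than the spread between libraries. The CPM of the 3 and 3 libraries did not overlap for 7 of 9 members, which also held for 45.2% of all genes tested.

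Muc2 had 2989, 5816 and 13220 CPM in wild-type CAC replicates 1 to 3 and 978, 883 and 1234 CPM in those labelled RNF138-/-, with all 3 labelled libraries below all wild-type ones. It was 7.44-fold lower (log2 fold change −2.90, SE 0.58, edgeR, adjusted p = 0.0426). Its partner in folding, Agr2, had 668, 839 and 1238 CPM against 230, 308 and 277 CPM (log2 fold change −1.81, SE 0.28, edgeR, adjusted p = 0.0300). Tff3 had 682, 637 and 802 CPM against 173, 122.9 and 231 CPM (log2 fold change −2.07, SE 0.27, edgeR, adjusted p = 0.0246). The libraries of these 3 genes separated by genotype with no overlap, and Tff3 had the smallest adjusted p of the 9.

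The mucus proteins secreted beside MUC2 had larger log2 fold changes in CAC. Clca1 had 4244, 9708 and 15120 CPM in wild type and 517, 58.4 and 142 CPM in libraries labelled RNF138-/-, a 42.2-fold difference (log2 fold change −5.40, SE 1.01, edgeR, adjusted p = 0.0381). Zg16 had 2636, 2785 and 4774 CPM against 76.4, 5.95 and 175 CPM (log2 fold change −5.37, SE 1.17, edgeR, adjusted p = 0.0486). Fcgbp had 2197, 6200 and 7481 CPM against 416, 164 and 543 CPM (log2 fold change −3.88, SE 0.66, edgeR, adjusted p = 0.0340). Replicate 2 of the libraries labelled RNF138-/- was the lowest for all 3 genes, and its 147 Zg16 counts set it far below the 1436 and 3875 counts of the other two.

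The other 3 members were not called in CAC. Spdef, the transcription factor, had 28.0, 51.0 and 96.2 CPM in wild type and 20.0, 21.7 and 19.5 CPM in libraries labelled RNF138-/-, without overlap (log2 fold change −1.58, SE 0.43, edgeR, adjusted p = 0.0684). Retnlb had 11.8, 566 and 2204 CPM against 16.4, 1.54 and 7.33 CPM, so wild-type replicate 1 lay within the labelled RNF138-/- range (log2 fold change −6.86, SE 1.90, edgeR, adjusted p = 0.0702). Spink4 had 587, 828 and 611 CPM against 350, 621 and 831 CPM, with full overlap (log2 fold change −0.22, SE 0.33, edgeR, adjusted p = 0.654). Of these 3, Retnlb and Spink4 overlapped between the genotypes and Spdef did not.

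With 1 library left out the number of members called lower was 5 without wild-type replicate 1, 2 without wild-type replicate 2, 5 without wild-type replicate 3, 0 without labelled RNF138-/- replicate 1 or 2, and 1 without labelled RNF138-/- replicate 3. Calls over all genes moved as well, with 0 genes called in either direction without labelled RNF138-/- replicate 1 or 2, 103 lower without its replicate 3, and 281, 573 and 968 lower without wild-type replicates 1, 2 and 3, so the fall in calls was not limited to the goblet genes. The log2 fold change was −6.66 for Clca1 without labelled RNF138-/- replicate 1, −6.40 for Zg16 without its replicate 3 and −2.13 for Muc2 without wild-type replicate 3. Retnlb, not called in any of these fits, was at −5.16 without wild-type replicate 3 and −7.78 without labelled RNF138-/- replicate 1. Spdef was at −0.99 without wild-type replicate 3, and was called only without wild-type replicate 1, at −1.92. Of the 6 called genes, Tff3 kept its call in 4 of these 6 fits, Agr2 in 3, Muc2 and Fcgbp in 2, Clca1 in 1 and Zg16 in 0, with an adjusted p of 0.0525 to 0.132 for Zg16. The 6 called genes kept a negative log2 fold change in every one of these fits and in DESeq2, which called 8 members and 10.49% of all genes lower. Exact permutation tests (two-sided) on log2 CPM gave p = 0.1 for 7 members, the smallest p that 3 libraries against 3 allow, 0.2 for Retnlb and 0.9 for Spink4.

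The fall was also measured against the epithelium. The summed CPM of 9 pan-epithelial markers was 10520 to 19530 in wild-type CAC colon and 8002 to 9817 in that labelled RNF138-/-, and Epcam, the pan-epithelial adhesion molecule, had 1818 ± 390 and 1562 ± 121 CPM (log2 fold change −0.27, edgeR, adjusted p = 0.433). Relative to that sum, the mean log2 difference was −5.53 for Zg16, −5.00 for Clca1, −3.09 for Fcgbp, −1.86 for Muc2, −1.33 for Tff3 and −0.996 for Agr2, each with exact permutation p = 0.1. It was −0.62 for Spdef (exact permutation p = 0.4), 0.48 for Spink4 (p = 0.5) and −4.71 for Retnlb (p = 0.3). Scaling the libraries to the epithelial sum in the edgeR fit moved the median of all genes by 0.73 on the log2 scale and turned the split of all calls from 97 higher and 857 lower to 322 higher and 463 lower. Under it 6 members were called lower, with Retnlb (adjusted p = 0.0447) in and Agr2 (adjusted p = 0.0622) out, and the sign of Spink4 turned to 0.48.

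In colitis colon, 0 of the 9 goblet genes were called by edgeR in either direction, where 0.0722% of all genes tested were called lower and 0.018% higher, and 2 members had an unadjusted p under 0.05. Mean Muc2 was 9595 ± 628 CPM in wild type and 8158 ± 3346 CPM in libraries labelled RNF138-/-, a difference within the spread between libraries. The members' median log2 fold change was −0.24, beside 0.02 over all genes tested. Retnlb and Zg16 were the exceptions, in opposite directions, and neither passed the adjusted threshold. Levels did not overlap for 3 of 9 members, Tff3, Zg16 and Retnlb, against 17.2% of all genes tested.

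Retnlb had 3.63, 4.10 and 5.08 CPM in wild-type colitis colon and 1807, 1740 and 96.5 CPM in the libraries labelled RNF138-/-, from 65 to 82 counts against 1870 to 30201. All 3 labelled libraries were above all wild-type ones, with replicate 3 far below the other two. The log2 fold change was 8.14 (SE 1.11), and the adjusted p by edgeR was 0.0525. With the replicate number as a block, since same-numbered colitis libraries had positive r, although labelled RNF138-/- replicate 2 was most like wild-type replicate 1, it was 7.50 with an adjusted p of 0.0452, and Retnlb then counted as called higher, 1 of 38 genes higher and 51 lower in that fit. DESeq2 also called it (adjusted p = 6.33e-12), as did edgeR with library totals only (0.0461), with the epithelial reference (0.0488), with no filter on low counts and without labelled RNF138-/- replicate 3. Without any single one of the 3 wild-type libraries, or without labelled RNF138-/- replicate 1 or 2, it was not called, with an adjusted p of up to 0.346. Without wild-type replicate 3 edgeR called 0 genes of all tested, and without wild-type replicate 1 it called 1.

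Zg16 had 3269, 3268 and 4387 CPM in wild-type colitis colon and 1586, 1664 and 2036 CPM in that labelled RNF138-/-, again without overlap. Its log2 fold change was −1.05 (SE 0.23, edgeR, adjusted p = 0.185), and DESeq2 alone among the alternatives called it lower (adjusted p = 0.00117). Tff3 had 1533, 1393 and 1400 CPM against 978, 1230 and 1089 CPM, with no overlap (log2 fold change −0.39, SE 0.19, edgeR, adjusted p = 0.545). The difference for Tff3 was smaller than 2-fold in each fit run.

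The other 6 members were spread widely over the colitis libraries labelled RNF138-/- and narrowly over wild type. Clca1 had 6002, 5184 and 6247 CPM in wild type and 9878, 16830 and 1635 CPM in the labelled libraries. Fcgbp had 2700, 2166 and 2398 CPM against 5755, 3052 and 1281 CPM, and Spink4 662, 832 and 701 CPM against 1589, 875 and 230 CPM. For these 3 genes, replicates 1 and 2 labelled RNF138-/- lay above and replicate 3 below all wild-type libraries. Muc2 had 9422, 10290 and 9072 CPM against 8593, 11260 and 4616 CPM, Agr2 1981, 2348 and 2390 CPM against 1317, 2674 and 1362 CPM, and Spdef 249, 245 and 156 CPM against 145, 267 and 59.7 CPM. Their adjusted p by edgeR was between 0.783 and 0.911, and the sign turned when 1 library was left out for Muc2 (0.04 without labelled RNF138-/- replicate 3), Clca1 (−0.04 without replicate 2), Fcgbp (−0.16 without replicate 1) and Spink4 (−0.40 without replicate 1).

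Of 6 other goblet products tested in colitis 3 lay above and 3 below 0, with a median of 0.01 and 0 called. Of these Ang4, an antimicrobial ribonuclease, and Itln1, a lectin that binds microbes, named here after their values were seen, were also highest in libraries labelled RNF138-/-. Ang4 had 15.4, 24.9 and 17.5 CPM in wild type and 2605, 2681 and 26.1 CPM in libraries labelled RNF138-/- (log2 fold change 6.51, SE 1.41, edgeR, adjusted p = 0.184), and Itln1 had 0.746 ± 0.236 and 74.7 ± 74.0 CPM (log2 fold change 6.62, SE 1.37, edgeR, adjusted p = 0.172). Neither passed the threshold.

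**Figure D2:**
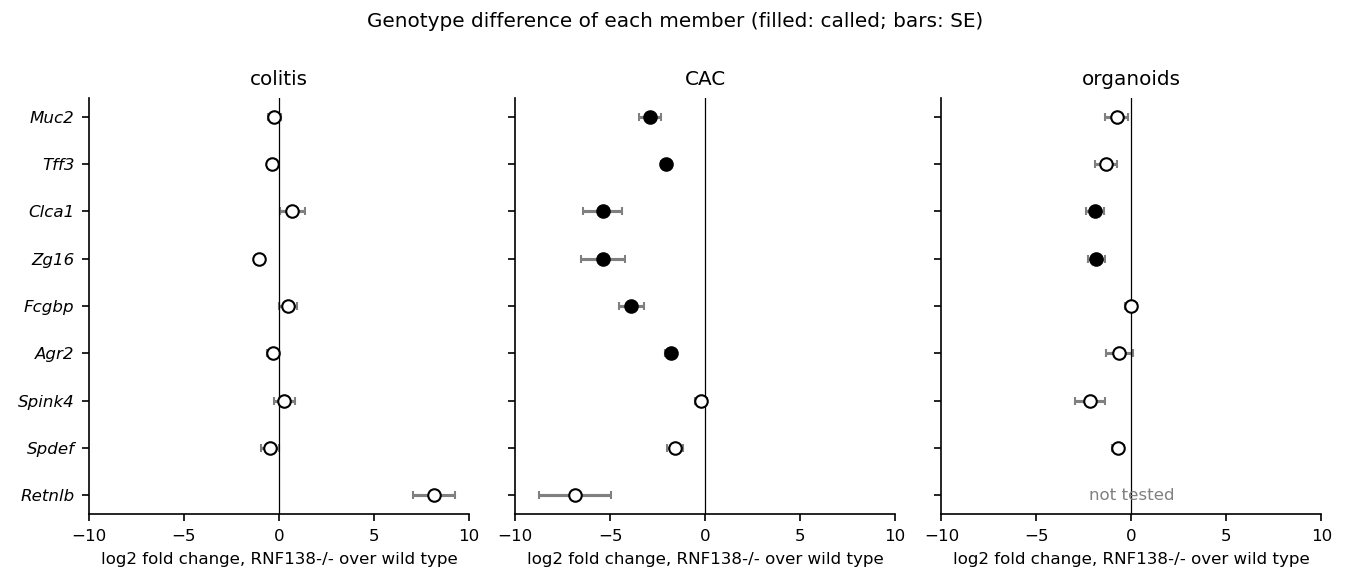
Log2 fold change of each goblet cell mucus gene, labelled RNF138-/- over wild type, in colitis colon, CAC colon and organoids (edgeR, 3 libraries against 3, bars are SE, filled points are called). In CAC 6 genes are called lower, in colitis none is called and Retnlb lies at 8.14, and in organoids Clca1 and Zg16 are called lower.

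In organoids, 2 of the 8 members tested were called lower in libraries labelled RNF138-/- and 0 higher, where 7.04% of all genes tested were called lower and 7.94% higher. These were Clca1 and Zg16, and levels did not overlap for these 2 members alone, against 53.2% of all genes tested. The members' median log2 fold change was −1.05, beside −0.04 over all genes tested. Retnlb had 0 to 9 counts per library and was removed by the filter on low counts.

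Clca1 had 1.85, 2.79 and 5.53 CPM in wild-type organoids and 1.26, 0.900 and 0.597 CPM in those labelled RNF138-/- (log2 fold change −1.90, SE 0.49, edgeR, adjusted p = 0.0189), from 32 to 82 counts against 8 to 18. Zg16 had 7.79, 17.5 and 25.6 CPM against 2.81, 7.09 and 4.48 CPM (log2 fold change −1.84, SE 0.47, edgeR, adjusted p = 0.0185). Zg16 rested on 135 to 380 counts in wild type and 40 to 134 in libraries labelled RNF138-/-. One fit of all 18 libraries called neither (adjusted p = 0.179 and 0.107), and 0 members were called without labelled RNF138-/- replicate 3. Zg16 also lost its call without wild-type replicate 2 (adjusted p = 0.0543, edgeR) or 3 (0.0501) or labelled RNF138-/- replicate 1 (0.0581), and Clca1 without labelled RNF138-/- replicate 2 (0.0716).

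The organoid fold changes of Spink4, Tff3, Agr2 and Muc2 moved most when wild-type replicate 3, and next when wild-type replicate 1, was left out. Spink4 had 6.46, 27.5 and 97.3 CPM in wild type and 8.92, 8.95 and 11.9 CPM in libraries labelled RNF138-/-. Tff3 had 19.4, 35.1 and 122.5 CPM against 25.3, 22.8 and 24.6 CPM, Agr2 6.29, 22.7 and 79.1 CPM against 26.3, 19.1 and 26.1 CPM, and Muc2 11.9, 25.8 and 79.7 CPM against 16.8, 31.9 and 21.6 CPM. In each of these genes wild-type replicate 1 was the lowest library and wild-type replicate 3 the highest. The log2 fold changes were −2.18 for Spink4 (edgeR, adjusted p = 0.0606), −1.32 for Tff3 (0.105), −0.63 for Agr2 (0.506) and −0.77 for Muc2 (0.331). Without wild-type replicate 3 they were −0.81, −0.21, 0.69 and 0.28, and without wild-type replicate 1 they were −2.67, −1.72, −1.11 and −1.18 and 5 members were called lower, while calls over all genes rose to 1756 higher and 1374 lower. Fcgbp had 48.2, 37.0 and 96.3 CPM against 56.7, 54.4 and 74.4 CPM (log2 fold change −0.01, adjusted p = 0.991), and Spdef 3.58, 6.62 and 7.62 CPM against 4.00, 3.55 and 3.58 CPM (−0.71, adjusted p = 0.102), where Spdef was at −0.49 without wild-type replicate 3 and −0.96 without wild-type replicate 1.

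The organoids also differed from CAC colon in cell type markers, and the wild-type organoids, with 0 Y-linked counts, differed in sex from the wild-type CAC libraries, which had 2415 to 4001. The summed CPM of 8 fibroblast and endothelium markers was 972 to 1803 in CAC colon, 9098 to 23240 in wild-type organoids and 40430 to 49680 in those labelled RNF138-/-. Col1a1, a collagen chain, had 9440, 3255 and 3403 CPM in wild-type organoids and 13250, 16050 and 15880 CPM in those labelled RNF138-/-. The pan-epithelial sum was 10810 to 11880 and 6255 to 9218, and Epcam had 1543 ± 107 and 1069 ± 230 CPM (log2 fold change −0.57, edgeR, adjusted p = 0.0421). Other marker sums also separated the organoid genotypes without overlap, wild type against labelled RNF138-/-. The leukocyte sum was 12.8 to 19.0 against 90.8 to 136 CPM (3 of 6 tested called higher and 2 lower), the smooth muscle sum 300 to 1542 against 1785 to 2008 CPM (2 of 7 higher), and the stem and proliferating sum 1088 to 1595 against 629 to 754 CPM (2 of 7 lower). The tuft sum was 97.0 to 150 against 209 to 242 CPM (1 of 6 higher and 1 lower) and the squamous sum 169 to 235 against 129 to 151 CPM (0 of 5 called). Of 7 fibroblast and endothelium markers tested, 5 were called higher and 0 lower in libraries labelled RNF138-/-. Of 5 enteroendocrine markers tested, 2 were called lower and 0 higher, with sums that overlapped. The part of these markers in the organoid differences was not tested. Relative to the epithelial sum, exact permutation tests gave p = 0.1 for Clca1 (mean log2 difference −1.27) and p = 0.2 to 0.9 for the other 7 members tested. Scaling the edgeR fit to that sum moved the median of all genes by 0.58 on the log2 scale and the split of calls from 1215 higher and 1077 lower to 3549 and 415, and it called Clca1, Zg16 and Spink4 lower, while library totals alone moved the median by −0.20 and gave 936 higher and 1654 lower.

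The models were then compared within each labelled genotype, in one fit of the 18 libraries. In wild type, CAC and colitis colon differed in 2 members. Spdef was lower in CAC (58.4 ± 34.7 against 217 ± 52.8 CPM, log2 fold change −1.89, SE 0.46, edgeR, adjusted p = 0.00853), where 3.81% of all genes were called lower. Retnlb was higher (927 ± 1140 against 4.27 ± 0.738 CPM, log2 fold change 7.76, SE 1.53, adjusted p = 0.00231), where 9.78% were called higher. All 3 wild-type CAC libraries exceeded all wild-type colitis libraries in Retnlb, of which the highest had 5.08 CPM, and without wild-type CAC replicate 3 the log2 fold change was 6.08. Tff3 (707 ± 85.4 against 1442 ± 79.0 CPM) and Agr2 (915 ± 293 against 2240 ± 225 CPM) did not overlap between the models either but missed the threshold (adjusted p = 0.109 and 0.117). The share of all genes without overlap was not computed between models, so the lack of overlap has no background to stand beside.

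In libraries labelled RNF138-/-, 8 of 9 members were called lower in CAC than in colitis, beside 19.6% of all genes. Markers of other cell types moved in this contrast too, and their part in it was not tested. All 7 smooth muscle, all 8 enteroendocrine, 8 of 9 absorptive and 3 of 9 pan-epithelial markers were called lower. Of 8 stem and proliferating markers, 5 were called higher and 0 lower. The log2 fold changes of the called members ran from −7.18 for Retnlb (8.42 ± 7.48 against 1215 ± 969 CPM) and −5.31 for Clca1 to −2.65 for Tff3, and Spink4 was not called at −0.58 (SE 0.68, adjusted p = 0.484). Library totals alone moved the median of all genes in this contrast by 0.31 and the epithelial reference by 0.77, and 8 members were called lower under both, while the sign of Spink4 turned under the latter (0.31). Between organoids and CAC colon, all 9 leukocyte markers were called lower in both labelled genotypes. Of 9 absorptive markers, 9 were called lower in wild type, and 3 lower and 1 higher in libraries labelled RNF138-/-. The part of these markers was not tested. Organoids lay below CAC colon in all 9 members in both labelled genotypes, where 26.8% of all genes were called lower in wild type and 26.5% in libraries labelled RNF138-/-. In wild type the fall ran from −11.5 on the log2 scale for Clca1 (3.39 ± 1.92 against 9691 ± 5439 CPM) and −7.55 for Muc2 (39.2 ± 35.8 against 7340 ± 5281 CPM) to −3.30 for Spdef, leaving Retnlb aside, which had 0, 1 and 9 counts in the organoids. Without wild-type organoid replicate 3 the wild-type value was −8.62 for Muc2, and without wild-type CAC replicate 3 it was −6.82. In libraries labelled RNF138-/- it ran from −8.01 for Clca1 to −2.46 for Spdef, and Zg16 overlapped between organoids and CAC because labelled RNF138-/- CAC replicate 2 had 5.95 CPM. Without labelled RNF138-/- CAC replicate 1, Clca1 was at −6.76 here and at −6.56 against colitis, and Retnlb was at −8.10 against colitis. Retnlb, at 6, 2 and 7 counts in these organoids, lost its call between organoids and CAC without labelled RNF138-/- CAC replicate 1 or any 1 of the 3 labelled RNF138-/- organoid libraries (adjusted p = 0.0507 to 0.0806). Clca1 against colitis was at −4.66 without labelled RNF138-/- colitis replicate 2, and Retnlb at −7.79 without its replicate 3.

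Whether the genotype difference itself changed between the models was tested as an interaction. This fit, like the contrasts between models, uses 1 estimate of spread per gene over all 18 libraries. The spread differed between groups, as for Retnlb at 4.27 ± 0.738 CPM in wild-type colitis and 927 ± 1140 CPM in wild-type CAC colon. The p-values rest on that pooled spread. Between CAC and colitis the genotype difference lay lower in CAC for 5 of 9 members, beside 9.37% of all genes. On the log2 scale, these were Retnlb (−14.94, SE 2.13, edgeR, adjusted p = 0.000726), Clca1 (−6.04, SE 1.11, adjusted p = 0.00364), Fcgbp (−4.30, SE 0.78, adjusted p = 0.00334), Zg16 (−4.26, SE 1.02, adjusted p = 0.0133) and Muc2 (−2.60, SE 0.81, adjusted p = 0.0437). Muc2 lost the call without any 1 of 9 of the 12 libraries, with an adjusted p of up to 0.141 without wild-type CAC replicate 3, and the other 4 kept it in all 12 fits. The called interaction values moved by over 1.5-fold without labelled RNF138-/- CAC replicate 1 (Clca1 −7.30, Retnlb −15.86) or 3 (Zg16 −5.32), wild-type CAC replicate 1 (Retnlb −15.55) or 3 (Muc2 −1.86, Retnlb −13.27), and labelled RNF138-/- colitis replicate 1 (Fcgbp −3.66) or 2 (Clca1 −5.37). Tff3 (−1.62, adjusted p = 0.0884), Agr2 (−1.42, 0.240), Spdef (−1.05, 0.281) and Spink4 (−0.46, 0.792) were not called.

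Between organoids and CAC, the genotype difference was less negative in organoids for Fcgbp (3.85, SE 0.78, adjusted p = 0.00286), Zg16 (3.50, SE 1.03, adjusted p = 0.0232) and Clca1 (3.48, SE 1.22, adjusted p = 0.0496), 3 of 9 members beside 11.4% of all genes. Between organoids and colitis 0 of 9 were called by edgeR, beside 2.2% of all genes called lower, 3 had an unadjusted p under 0.05 and DESeq2 called Retnlb lower. Fcgbp was called in each of the 12 fits with 1 library left out, Zg16 lost the call without replicate 2 of either organoid genotype, and Clca1 lost it in 9 of the 12, with an adjusted p of up to 0.119. Without labelled RNF138-/- CAC replicate 1 Clca1 was at 4.74, and without its replicate 3 Zg16 was at 4.57. The number of members called higher in these fits ran from 1 without wild-type organoid replicate 2 or labelled RNF138-/- organoid replicate 2 to 6 without wild-type organoid replicate 3.

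The make-up of the goblet counts shifted with the fall in level. Clca1 took 30.2% to 35.4% of the counts on the 9 genes in wild-type CAC colon and 2.67% to 18.6% in that labelled RNF138-/-. Spink4 took 1.34% to 4.18% in the former and 12.6% to 28.4% in the latter, and Zg16 10.2% to 18.8% and 0.272% to 5.07%. Muc2 kept a large share in both, 21.2% to 29.0% and 35.2% to 40.4%. In organoids Fcgbp took 18.7% to 45.7% in wild type and 36.6% to 44.4% in libraries labelled RNF138-/-, and Clca1 took at most 1.75%. These shares depend on transcript length and sum to the whole, so that a rise of 1 share lowers the others.

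**Figure D3:**
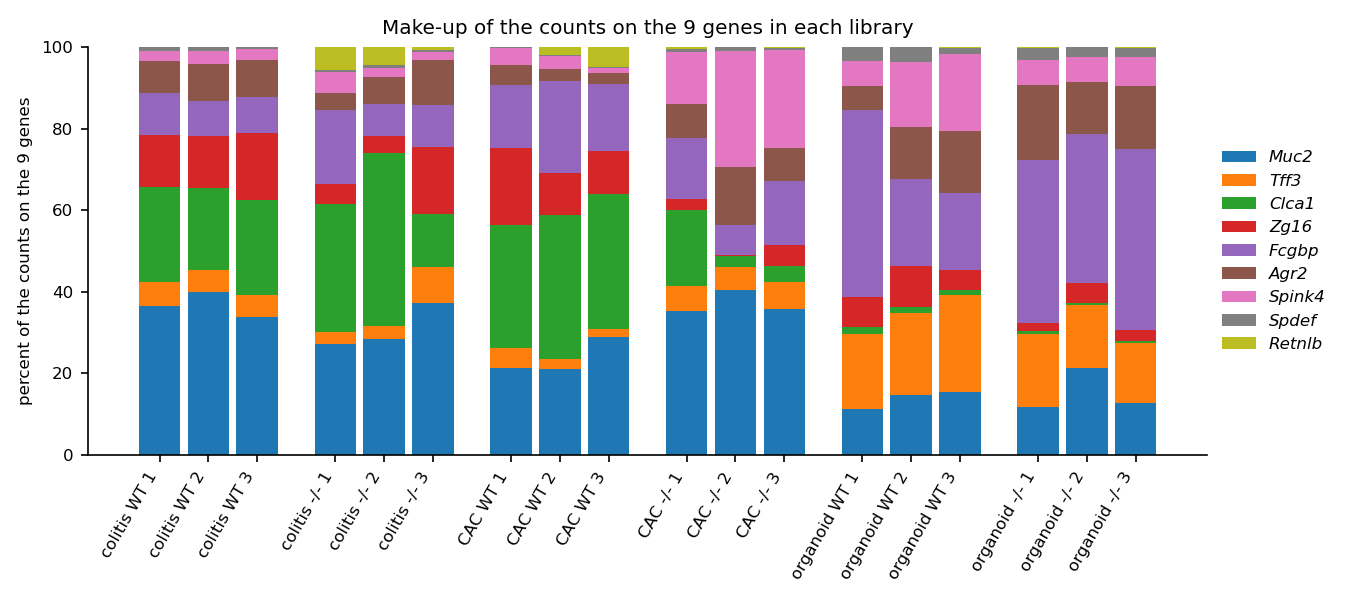
Share of each gene, in percent, of the counts on the 9 goblet cell mucus genes in each of the 18 libraries. Clca1 takes 30.2% to 35.4% in wild-type CAC colon and at most 18.6% in that labelled RNF138-/-, where Spink4 takes 12.6% to 28.4%, and Fcgbp takes 18.7% to 45.7% in organoids.

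Genes that act upstream of the mucus genes or build mucus with them were read from fixed lists. Of 11 transcription factors and ligands of secretory cell fate, 10 were tested in CAC and 2 were called lower in libraries labelled RNF138-/-, with a list median of 0.36 on the log2 scale. Atoh1, the master factor of the secretory lineage, had 48.3 ± 11.5 CPM in wild type and 14.6 ± 3.78 CPM (log2 fold change −1.78, SE 0.26, edgeR, adjusted p = 0.0278). Klf4, a factor of goblet cell differentiation, had 516 ± 297 and 86.3 ± 39.2 CPM (−2.64, SE 0.52, adjusted p = 0.0410). In colitis 0 of 11 were called by edgeR, with all 11 below 0 and a median of −0.28. In organoids 2 of 10 were called lower, Foxa2 (43.2 ± 18.4 against 17.2 ± 2.14 CPM) and Gfi1 (3.50 ± 2.50 against 0.790 ± 0.293 CPM).

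The list counts here and below stand beside 4.83% of all genes called lower in CAC, and beside 7.04% lower and 7.94% higher in organoids, where 2 of 18 secretion genes and 1 of 20 glycosylation enzymes lower lie near that background. Of 18 genes of goblet secretion, 6 were called lower in CAC and 16 lay below 0. Rab27a, a GTPase of granule release, was lower (log2 fold change −2.25, SE 0.29, edgeR, adjusted p = 0.0246), as were Rep15 (−2.34), Capn9, a calpain protease (−3.25), and Nlrp6, an inflammasome sensor that bears on mucus release (−2.40). The list's median was −0.81 in CAC, −0.67 in colitis, where 0 of 18 were called and 16 lay below 0, and −0.19 in organoids, where Bcas1 (−1.72, adjusted p = 0.00120) and Creb3l4 (−1.13, adjusted p = 0.0119), a stress-responsive transcription factor, were called lower. Of the enzymes of mucin O-glycosylation, 7 of 22 were called lower in CAC (median −1.17), 0 of 22 in colitis (median −0.63) and 1 of 20 in organoids, where 4 were called higher (median 0.26). The sulfotransferase Chst4 had 50.2 ± 14.6 and 9.95 ± 0.336 CPM in CAC (−2.39, SE 0.25, edgeR, adjusted p = 0.0193), and Galnt7, which adds the initiating sugar, 160 ± 20.4 and 77.9 ± 4.00 CPM (−1.10, adjusted p = 0.0261). The sialyltransferases St6galnac6 (−2.10) and St3gal4 (−4.20) were also lower. In organoids St6galnac2 was lower (−1.33, adjusted p = 0.00332), and St6gal1 (1.38), St3gal1 (1.61) and Galnt10 (1.15) were among those higher.

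Other mucins and goblet products followed no common course. Of the other gel-forming mucins only Muc6, the gland mucin of the stomach, passed the filter, with 31.1 ± 4.53 CPM in wild-type and 8.96 ± 1.60 CPM in labelled RNF138-/- organoids (−1.84, SE 0.18, edgeR, adjusted p = 0.00102) and no call between the genotypes in colon, and Muc5ac and Muc5b lay at means under 0.5 CPM in each group. Of 8 membrane mucins tested, Muc3 was called lower in CAC (2428 ± 1354 against 139 ± 130 CPM, −4.19, adjusted p = 0.0426) and Muc4 higher in organoids (8.62 ± 4.56 against 35.5 ± 9.62 CPM, 1.99, adjusted p = 0.00826). Of 6 other goblet products tested, 0 were called in colitis or CAC and 2 lower in organoids, Itln1 (116 ± 79.7 against 12.3 ± 1.44 CPM, −3.28, adjusted p = 0.00297) and Ang4 (98.8 ± 107 against 17.3 ± 2.51 CPM, −2.55, adjusted p = 0.0337). Ang4 overlapped, at 16.9, 59.1 and 220 CPM in wild-type and 17.3, 19.8 and 14.8 CPM in labelled RNF138-/- organoids, with wild-type replicate 3 far above the rest. Of the paralogs of members, 10 were tested in CAC and Retnla alone was called lower (adjusted p = 0.0474), with 3.78 ± 3.03 CPM in wild type and 0 counts in the libraries labelled RNF138-/-. Of the type 2 and IL-22 signals, which can induce goblet genes, 6 to 7 were tested per model. Il22ra1, a subunit of the IL-22 receptor, was called lower in CAC (45.9 ± 15.2 against 17.0 ± 0.992 CPM, −1.49, adjusted p = 0.0341) and Il13ra1 higher in organoids (78.8 ± 12.2 against 166 ± 16.7 CPM, 1.04, adjusted p = 0.00214), and Il13 and Il22 themselves had means under 1 CPM in each group.

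Markers of other cell types moved with the CAC difference, and their part in it was not tested. All 7 smooth muscle markers were called lower in libraries labelled RNF138-/-, with a summed level of 2820 to 9430 CPM in wild type and 135 to 288 CPM. Of 9 absorptive colonocyte markers all lay below 0 and 3 were called, with sums of 2323 to 14510 and 155 to 432 CPM, and of 8 enteroendocrine markers all lay below 0 and 3 were called, with sums of 209 to 362 and 21.5 to 86.7 CPM. The smooth muscle, absorptive, enteroendocrine, pan-epithelial and skeletal muscle sums lay lower without overlap between the genotypes, as the goblet sums did. The stem and proliferating sums lay higher without overlap. Among single genes, 45.2% of all tested did not overlap in CAC. The 8 stem and proliferating markers all lay above 0 with 0 called, at sums of 432 to 734 and 1484 to 1615 CPM. Of 9 pan-epithelial markers all lay below 0 and 0 were called, 1 of 9 leukocyte markers was called lower, and leukocyte sums (546 to 965 and 781 to 1067 CPM) and fibroblast and endothelium sums overlapped. Il25, a tuft cell cytokine, was at 0 in the libraries labelled RNF138-/- and no other marker of these lists was at 0 throughout a CAC group. Tuft sums overlapped (120 to 168 and 133 to 242 CPM), as did squamous sums (44.2 to 52.4 and 27.7 to 114 CPM), and of 3 skeletal muscle markers tested 1 was called lower. In colitis 1 absorptive marker was called lower and no other marker of these lists was called.

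**Figure D4:**
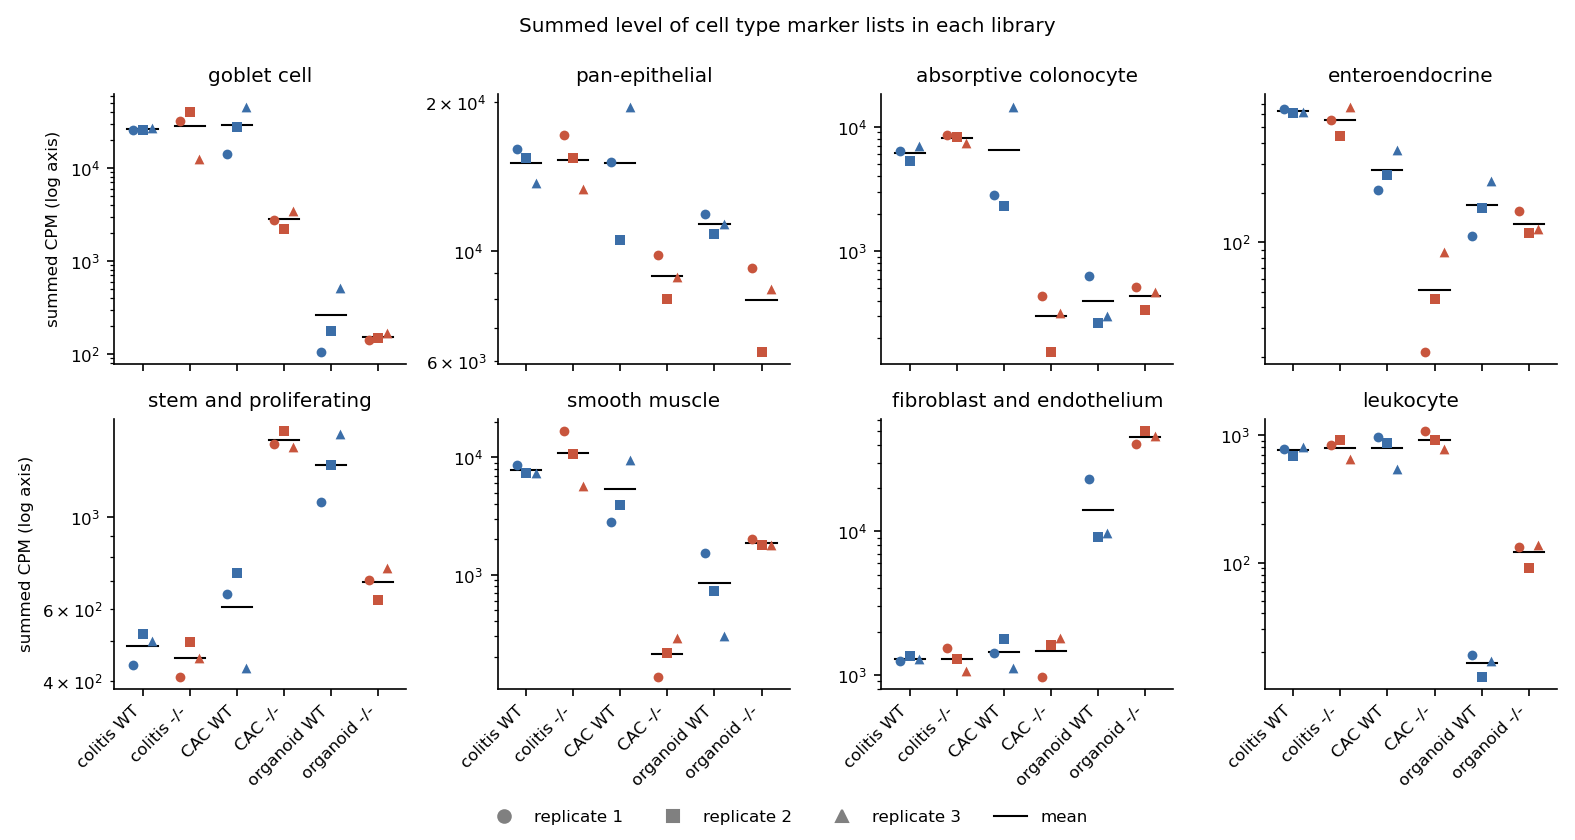
Summed CPM (log axis) of the goblet cell genes and of 7 other marker lists in each of the 18 libraries, by model and labelled genotype, with the replicate number as the marker shape and a bar at the group mean (n = 3). In CAC the goblet, pan-epithelial, absorptive, enteroendocrine and smooth muscle sums lie lower in libraries labelled RNF138-/-, and the stem and proliferating sum lies higher. In organoids labelled RNF138-/- the fibroblast and endothelium sum reaches 40430 to 49680 CPM.

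Over the 12 colon libraries the members varied together to different degrees, as a description with no test. Pearson r of log2 CPM was positive in all 36 pairs, from 0.158 for Zg16 and Spink4 to 0.955 for Tff3 and Agr2, with a median of 0.731. Spink4 had the lowest median r with the other 8, at 0.285, followed by Retnlb at 0.351, beside 0.895 for Muc2. With each group centred on its mean, 32 of 36 pairs stayed positive, and the highest was Muc2 with Retnlb at 0.904. The centred median was 0.440 over all pairs, 0.390 for Spink4 and 0.650 for Retnlb, and Agr2 (0.299), Zg16 (0.302) and Tff3 (0.341) then lay below Spink4. These points share libraries, depth and tissue make-up.

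The genes whose level most resembled the mean standardized log2 CPM of the 9 members over the 18 libraries were Pmm2 (r = 0.986), Fer1l6 (0.983), Klk1 (0.983), Capn9 (0.982), Ccl28 (0.979), Ano7 (0.978), Kit (0.978), Cracr2a (0.978), Gmds (0.977) and 2010300C02Rik (0.977), among 13889 candidates. Over the 12 colon libraries they were Klf4 (0.979), Smpd1 (0.977), Cnn1 (0.976), Des (0.976), Actg2 (0.973), Nacad (0.970), Inpp5j (0.969), Ethe1 (0.965), Aqp8 (0.964) and Tor3a (0.963), among 13355. Cnn1, Des and Actg2 belong to the smooth muscle list and Aqp8 to the absorptive list.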

How the data were processed

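The authors deposited a table of raw gene counts for 18 libraries, made per the labels with STAR 2.6.1d and HTSeq 0.11.2 on mm10. A second deposited table holds the authors' own log2 fold changes and p-values and was not used. The sources name more than 1 sequencer and counting tool, so the processing of the counts is given as the labels state it. Of 36757 genes, 36700 (99.845%) matched GENCODE M21, which gave positions and lengths. Library totals were 11514716 to 24390082 counts.

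Genes that passed filterByExpr were tested with the quasi-likelihood test of edgeR 4.0.16 (R 4.3.3, TMM normalization, Benjamini-Hochberg adjustment over all genes tested). Genotypes were compared within each model, in 6 libraries, and models and interactions in 1 fit of 18. A call needed both an adjusted p below 0.05 and a change of 2-fold or more. Every adjusted p in the text is from edgeR unless DESeq2 1.42.0 is named. Exact permutation tests used log2(CPM + 0.5), and single-gene levels are mean ± SD. The fits were tested on simulated data. Replicate pairs differed by more than counting noise, so none was taken for 1 library deposited 2 times. This does not show that they came from separate animals or cultures. Same-numbered colitis libraries had positive r of their deviations over genes (0.251, 0.108 and 0.521), although replicate 2 labelled RNF138-/- was most like wild-type replicate 1. This is a hint from the data and not from the labels, and the colitis fit with the replicate block is therefore given beside Retnlb.

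The members and gene lists were chosen with earlier results of these data known. All 9 members are named, and from each list at most 4 genes called per model, with the smallest adjusted p. Ang4 and Itln1 in colitis, genes of lists given as near or at 0 CPM (Muc5ac, Muc5b, Il13, Il22, Il25), and Col1a1, Car1, Myh11, Reg4 and Muc6 for libraries that stand apart fall outside this rule and were chosen after their values were seen. Rnf138, Epcam and the 10 genes most like the members are named as well, among genes of at least 5 CPM in 1 group. Alternatives were DESeq2, other size factors, library totals, no filter, the sum of 9 epithelial markers as reference, the replicate block, another set of libraries in the fit and each library left out.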

Additional observations from a re-analysis of the deposited data

Results flagged for a closer look

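The genotype difference itself differed between models for 5 members, by the interaction test of edgeR. From colitis to CAC it shifted by −2.60 on the log2 scale for Muc2, −6.04 for Clca1, −4.26 for Zg16, −4.30 for Fcgbp and −14.94 for Retnlb. In colitis the estimate was positive for Retnlb (8.14), Clca1 (0.69) and Fcgbp (0.47), so for these the sign changed. Retnlb was called by edgeR in neither model, and Muc2 lost its interaction call in most fits with 1 library left out. From CAC to organoids the genotype difference became less negative by 3.48 for Clca1, 3.50 for Zg16 and 3.85 for Fcgbp. The libraries of all 3 models enter these fits, and the organoid genotypes differ in sex as well.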

How the results depend on the processing

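Among counts of members called, 273 values under alternatives stayed within 1.5 times the reported one and 31 moved. Among single members, interactions included, 1129 values stayed on their side of the threshold, 40 passed it, 63 fell below it and 33 changed sign. In colitis, the number called higher went from 0 to 1 with DESeq2, library totals, no filter on low counts, the replicate block or the epithelial reference (Retnlb each time), and DESeq2 also called 1 lower (Zg16). With 1 library left out it was 0 to 1. In CAC the number called lower ran from 0 to 5 over the libraries left out, and was 5 to 8 under the other settings. In organoids it was 4 with no filter, 1 with the replicate block, 0 in 1 fit of all 18 libraries, and 0 to 5 over the libraries left out. In wild type, CAC against colitis gave 3 lower with no filter or with only the 6 libraries compared (Tff3 and Agr2 besides Spdef). For the organoid to CAC interaction, DESeq2 and no filter gave 5 higher, leaving out 1 library gave 1 to 6, and 0 to 1 lower. For organoids against colitis DESeq2 gave 1 lower, and leaving out 1 library 0 to 1. With the replicate block Clca1 lost its call in CAC (adjusted p = 0.0577, edgeR), in organoids (0.0542) and in the organoid to CAC interaction, and no other count moved by over 1.5 times.

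Signs turned only for values that were not called. In colitis, leaving out 1 library gave ranges of −0.55 to 0.039 for Muc2, −0.036 to 1.19 for Clca1, −0.16 to 0.85 for Fcgbp and −0.40 to 0.74 for Spink4, which was −0.078 with the replicate block. In CAC, Spink4 was 0.044 with library totals, 0.48 with the epithelial reference and −0.51 to 0.049 over the libraries left out. In organoids, Fcgbp was 0.041 with DESeq2, 0.022 with RLE size factors, 0.011 with no filter, 0.10 with the replicate block, 0.57 with the epithelial reference, 0.030 in 1 fit of 18 libraries and −0.25 to 0.50 over the libraries left out. Over the same, Muc2 ran from −1.18 to 0.28 and Agr2 from −1.11 to 0.69. For CAC against colitis, Zg16 in wild type ran from −0.42 to 0.041, Spink4 in wild type was 0.024 with the epithelial reference, and Spink4 in libraries labelled RNF138-/- was 0.31 with it and ran from −1.10 to 0.12. Among interactions, leaving out 1 library gave −0.96 to 0.24 for Spink4 from colitis to CAC. From colitis to organoids it gave −0.93 to 0.53 for Muc2, −1.30 to 0.20 for Tff3, −0.84 to 0.20 for Fcgbp, −0.61 to 0.38 for Spdef and −0.76 to 1.03 for Agr2, which was 0.0078 with the replicate block. The cause was not tested.

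With the longest transcript in place of the exon union, 4 of 9 members kept their rank of level in wild-type and 3 in labelled RNF138-/- colitis colon, 6 and 7 in CAC colon, and 7 and 4 in organoids. Over all genes, the calls in colitis rose from 3 higher and 12 lower to 199 and 138 with DESeq2 and to 38 and 51 with the replicate block. The deviations of same-numbered libraries had r = 0.033, 0.227 and 0.077 in CAC and −0.22, −0.09 and 0.08 in organoids, and in none of the 3 models was each library most like its own number. A sex covariate could not be fitted, because all tissue libraries held Y-linked counts and the organoid genotypes split by sex. The share of calls that were higher moved from 10.2% to 41.0% in CAC and from 53.0% to 89.5% in organoids with the epithelial reference, and to 36.1% in organoids with library totals. Between models, it moved from 47.1% to 62.0% with library totals and 79.6% with the epithelial reference for CAC against colitis labelled RNF138-/-, from 39.5% to 52.5% with the epithelial reference for organoids against CAC in wild type, and from 40.3% to 21.1% with library totals in libraries labelled RNF138-/-. For interactions, library totals moved it from 21.5% to 36.7%, from 60.2% to 30.7% and from 61.6% to 35.7% for CAC against colitis, organoids against CAC and organoids against colitis. Groups of 3 libraries allow no exact permutation p below 0.1, and Retnlb in organoids, at 9 counts or fewer, is below what this depth can compare between the genotypes.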
